A study of Homo sapiens with 18 samples.

Results

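The APOBEC3 cytidine deaminases are a family of 7 human genes, APOBEC3A, APOBEC3B, APOBEC3C, APOBEC3D, APOBEC3F, APOBEC3G and APOBEC3H, which were measured here by RNA-seq in K562, a human leukaemia cell line with erythroid features. The family was taken by name, as 7 of the 24395 genes of the count tables. It was chosen by the level of APOBEC3B, which had been called higher with KRAB than without it in an earlier paired fit of these libraries, so all KRAB against dCas9 values below are descriptions without a test. Of the 7 members, 6 passed the filter on low counts and were among the 14713 genes tested. APOBEC3H did not pass.

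The study used dCas9, a Cas9 without cutting activity, alone or fused to KRAB, a repressor domain, and steered it with a guide RNA (gRNA) to HS2, an enhancer of the β-globin locus. The 18 libraries formed 6 groups of 3. KRAB_CR4 and KRAB_CR10 expressed dCas9-KRAB with the HS2 gRNA CR4 or CR10. The groups dCas9_CR4 and dCas9_CR10 expressed dCas9 without KRAB and the same gRNAs. KRAB_no_gRNA carried dCas9-KRAB but no guide, and the no_lentivirus cells received no virus. The 15 lentiviral libraries share viral transduction with polybrene at 4 µg/mL and selection with puromycin at 1 µg/mL, begun about 96 hours later, so that vector, polybrene and selection cannot be told apart. The series' design text says the transductions were made in triplicate. The labels do not say that each library was a separate culture of its own, and p-values measure only the spread between these libraries.

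APOBEC3 enzymes remove an amino group from cytosine in single-stranded DNA and so turn it into uracil. They are known for blocking retroviruses and retrotransposons by mutating or obstructing their newly copied DNA, and the HIV-1 protein Vif counters several of them by sending them for degradation. In tumours, APOBEC3A and APOBEC3B are known as sources of clustered C-to-T and C-to-G mutations. Each enzyme has 1 or 2 zinc-coordinating domains, and in the members with 2 the last one carries out the deamination.

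The members are neighbours on the long arm of chromosome 22, in the order APOBEC3A, APOBEC3B, APOBEC3C, APOBEC3D, APOBEC3F, APOBEC3G and APOBEC3H, from chr22:38957609-38963184 for APOBEC3A to chr22:39097244-39104067 for APOBEC3H, on the + strand of GRCh38 in RefSeq. The deposited counts were made on hg19, so these positions serve only for order and sequence. In GENCODE transcripts on GRCh38, the zinc motif was searched in the translated coding sequence as His, any residue, Glu, then 23 to 28 residues, Pro, Cys, 2 to 4 residues and Cys. It was found once in APOBEC3A, APOBEC3C and APOBEC3H and at 2 places in APOBEC3B, APOBEC3D, APOBEC3F and APOBEC3G. The last motif of 6 members is shown because it bears on how well short reads separate the members. Capitals mark the codons of the His, the Glu and both Cys.
APOBEC3A, coding bases 208 to 318, chr22:38961420-38961530: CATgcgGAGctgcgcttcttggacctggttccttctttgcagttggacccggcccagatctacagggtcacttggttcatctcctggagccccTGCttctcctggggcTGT
APOBEC3B, coding bases 757 to 867, chr22:38991365-38991475: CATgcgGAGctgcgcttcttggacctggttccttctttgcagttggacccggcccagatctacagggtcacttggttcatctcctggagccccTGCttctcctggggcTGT
APOBEC3C, coding bases 196 to 300, chr22:39017787-39017891: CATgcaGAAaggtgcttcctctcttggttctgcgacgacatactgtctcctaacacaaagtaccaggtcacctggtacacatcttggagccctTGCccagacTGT
APOBEC3D, coding bases 784 to 888, chr22:39031715-39031819: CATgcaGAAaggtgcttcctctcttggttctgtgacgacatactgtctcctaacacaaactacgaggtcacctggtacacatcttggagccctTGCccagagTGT
APOBEC3F, coding bases 745 to 849, chr22:39052095-39052199: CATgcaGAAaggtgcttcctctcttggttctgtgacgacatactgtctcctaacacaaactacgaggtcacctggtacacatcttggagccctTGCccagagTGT
APOBEC3G, coding bases 769 to 873, chr22:39086312-39086416: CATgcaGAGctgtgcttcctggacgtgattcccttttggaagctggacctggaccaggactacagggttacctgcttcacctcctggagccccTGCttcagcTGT

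The APOBEC3A and APOBEC3B motifs were identical over all 111 bases, with 0 differing. The APOBEC3D and APOBEC3F motifs were identical over all 105 bases. APOBEC3C differed from both of these at 4 of 105 bases, whereas APOBEC3G differed from APOBEC3C at 45 and from APOBEC3F at 46. Over the whole coding sequence, the longest identical run was 196 bases between APOBEC3A and APOBEC3B, 222 bases between APOBEC3D and APOBEC3F, 172 bases between APOBEC3B and APOBEC3D and 142 bases between APOBEC3F and APOBEC3G. Of all 50-base windows of a member's coding sequence, 35.8% of those of APOBEC3A, 35.3% of APOBEC3B, 27.3% of APOBEC3D and 35.3% of APOBEC3F occurred unchanged in another member. The share was 11.8% for APOBEC3G, 6.1% for APOBEC3C and 0% for APOBEC3H. How reads that fit several members were counted is not given in the sources used here. By coding sequence alone, the levels of APOBEC3A, APOBEC3B, APOBEC3D and APOBEC3F are therefore less certain as to which member they belong to than those of APOBEC3C and APOBEC3G. Reads also come from untranslated sequence, which was not compared. Coding sequence was 570 of 2818 transcript bases in APOBEC3C and 1119 of 2694 in APOBEC3F.

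APOBEC3C and APOBEC3B were the most abundant members per length of transcript. Levels are CPM, a gene's counts relative to the library's total, with TMM scaling between libraries. Divided by transcript length, the medians over the 18 libraries were 40.3 CPM per kilobase for APOBEC3C, 38.4 for APOBEC3B, 8.05 for APOBEC3F, 4.54 for APOBEC3D, 4.31 for APOBEC3G and 3.02 for APOBEC3A. APOBEC3C stood above APOBEC3B in 11 of 18 libraries, so the order of these 2 was not separated by the spread between libraries. The APOBEC3B level is also a sum over 2 transcripts, unlike that of APOBEC3C. How reads that fit both APOBEC3B transcripts were counted is not given in the sources used here. APOBEC3B was above APOBEC3F, and APOBEC3F above APOBEC3D, in 18 of 18 libraries. APOBEC3D was above APOBEC3G in 12 of 18 libraries and APOBEC3G above APOBEC3A in 16 of 18. APOBEC3H, a restriction factor whose stable forms occur only in some people, had 6 counts in all libraries together, 4 in library 3 of KRAB_CR4 and 2 in library 3 of KRAB_no_gRNA. Since a fragment gives 2 counts, a library with 0 counts of APOBEC3H allows up to 3 fragments, or 0.176 to 0.263 CPM across the libraries, which covers counting error only.

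**Figure D1:**
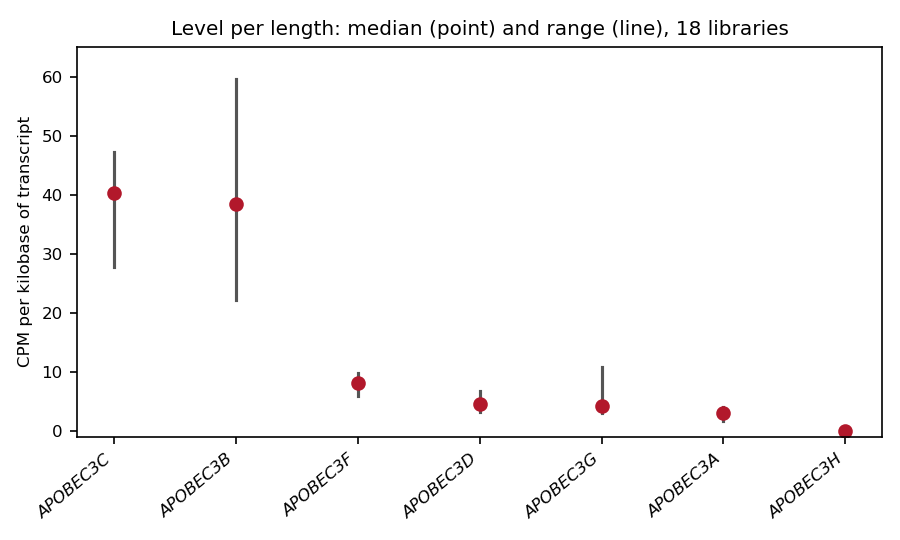
Level of each APOBEC3 member per kilobase of transcript (vertical axis, CPM per kilobase, linear) with the median as a point and the range over 18 libraries as a line. APOBEC3C and APOBEC3B lie near 40.3 and 38.4 CPM per kilobase and overlap, the next member, APOBEC3F, has a median of 8.05, and APOBEC3H lies at 0.

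Outside the APOBEC3 cluster, the related genes APOBEC1, the apolipoprotein B mRNA editing enzyme, and APOBEC4 were at 0 counts in every library. APOBEC2, known from muscle, reached at most 0.861 CPM in the lentiviral libraries and 0.372 CPM in no_lentivirus.

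APOBEC3B, a nuclear deaminase, is described first among the members with 2 domains. It had 57.3, 61.5 and 84.1 CPM in libraries 1, 2 and 3 of KRAB_CR4, and 38.0, 56.0 and 53.6 CPM in dCas9_CR4. It had 46.5, 56.5 and 66.9 CPM in KRAB_CR10, and 31.3, 44.4 and 52.2 CPM in dCas9_CR10. The KRAB_no_gRNA libraries had 48.3, 51.9 and 59.6 CPM, and the no_lentivirus libraries 51.8, 68.9 and 55.2 CPM. Library 3 of KRAB_CR4 was the highest of all 18 and library 1 of dCas9_CR10 the lowest, and every group overlapped with at least 1 other. Its counts came from 2 transcripts, NM_004900 with 56.2% and NM_001270411 with 43.8%. A hybrid transcript of APOBEC3A and APOBEC3B, NM_001193289, was kept apart and lay between 1.73 and 3.34 CPM in all libraries.

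APOBEC3D, a cytoplasmic restriction factor, had 11.7, 11.1 and 17.0 CPM in KRAB_CR4, and 9.87, 10.1 and 15.2 CPM in dCas9_CR4. It had 11.6, 14.5 and 16.3 CPM in KRAB_CR10, and 10.1, 11.3 and 14.8 CPM in dCas9_CR10. In KRAB_no_gRNA it had 8.19, 8.89 and 11.9 CPM, and in no_lentivirus 10.8, 12.9 and 10.6 CPM. In each of the 5 lentiviral groups the highest value belonged to library 3. APOBEC3F, which acts against Vif-deficient HIV-1, had 21.2, 19.3 and 23.2 CPM in KRAB_CR4, and 15.5, 16.5 and 23.6 CPM in dCas9_CR4. It had 18.9, 23.3 and 25.0 CPM in KRAB_CR10, and 16.1, 24.0 and 25.5 CPM in dCas9_CR10. The KRAB_no_gRNA libraries had 13.9, 16.3 and 25.6 CPM and the no_lentivirus libraries 17.6, 20.5 and 19.8 CPM. The 3 no_lentivirus values of APOBEC3F lay inside the range of the 15 lentiviral libraries, and library 3 was again the highest of each lentiviral group.

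APOBEC3G, the restriction factor first identified through Vif and packaged into virions, had 6.05, 6.28 and 8.72 CPM in KRAB_CR4, and 6.14, 8.16 and 9.49 CPM in dCas9_CR4. It had 7.37, 6.90 and 8.06 CPM in KRAB_CR10, and 5.68, 6.01 and 10.1 CPM in dCas9_CR10. The KRAB_no_gRNA libraries had 7.54, 8.13 and 7.76 CPM, and the no_lentivirus libraries 10.6, 19.9 and 11.1 CPM. All 3 no_lentivirus libraries exceeded all 15 lentiviral libraries, and library 2 of no_lentivirus stood far above the other two.

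Among the members with 1 domain, APOBEC3C, a weaker restriction factor, had 124, 105 and 133 CPM in KRAB_CR4, and 84.2, 85.6 and 127 CPM in dCas9_CR4. It had 96.3, 127 and 129 CPM in KRAB_CR10, and 78.3, 119 and 123 CPM in dCas9_CR10. The KRAB_no_gRNA libraries had 79.6, 82.6 and 121 CPM, and the no_lentivirus libraries 112, 102 and 115 CPM. Library 3 was the highest of each lentiviral group, and the no_lentivirus libraries lay inside the lentiviral range. APOBEC3A, a highly active deaminase known from myeloid cells and keratinocytes, averaged 4.12 ± 0.553 CPM in KRAB_CR4, 5.28 ± 0.626 in KRAB_CR10, 3.82 ± 0.716 in dCas9_CR4, 4.83 ± 0.848 in dCas9_CR10, 4.62 ± 1.16 in KRAB_no_gRNA and 3.24 ± 0.729 in no_lentivirus (SD, n = 3 each). It rested on 80 to 160 counts per library, that is on few fragments, and its lentiviral range of 3.23 to 5.75 CPM overlapped the no_lentivirus range of 2.43 to 3.84 CPM.

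**Figure D2:**
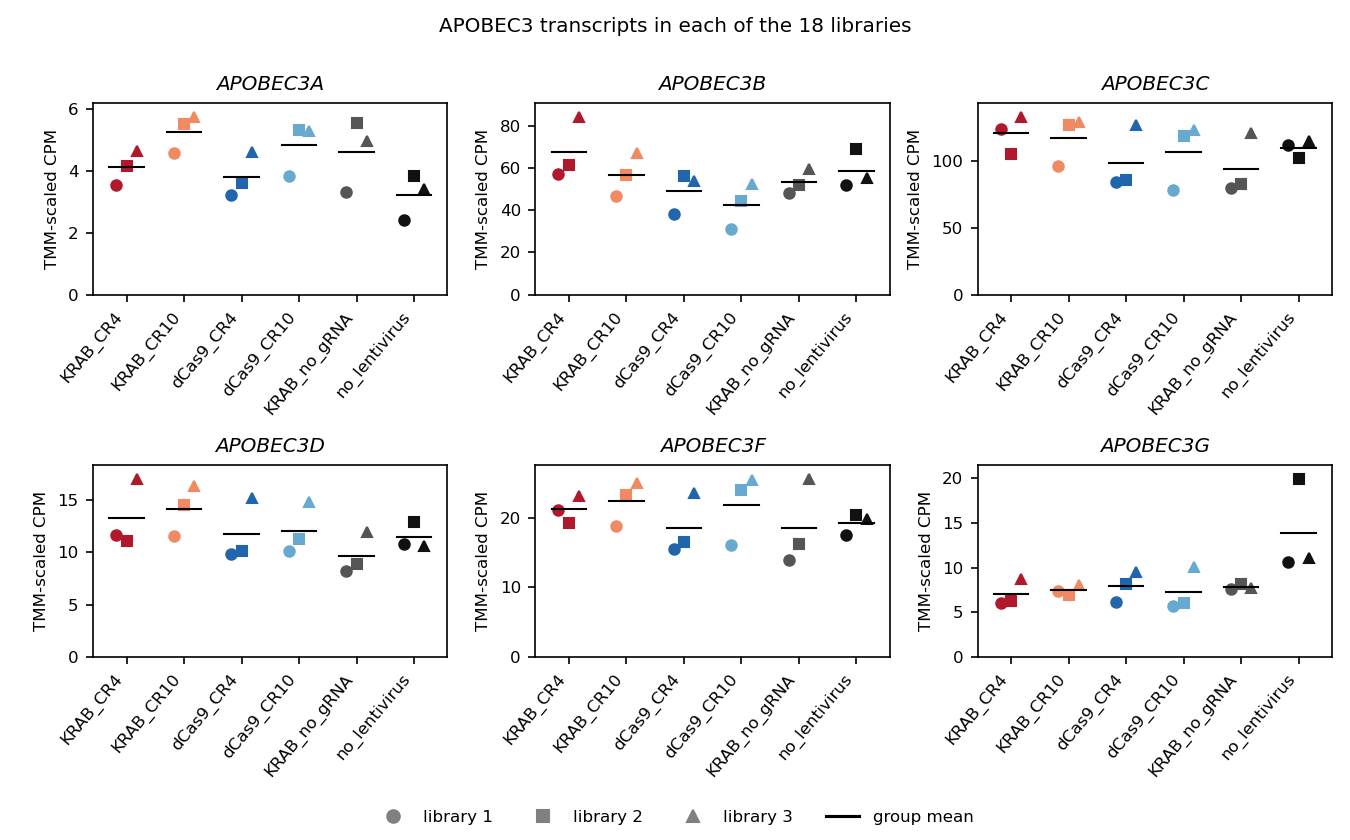
TMM-scaled CPM (vertical axes, linear from 0) of 6 APOBEC3 members in each of 18 libraries, with groups along the horizontal axis, circles, squares and triangles for libraries 1, 2 and 3, and a bar at the group mean. APOBEC3G is the member whose no_lentivirus libraries, at 10.6 to 19.9 CPM, all lie above the lentiviral ones, at 5.68 to 10.1 CPM.

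Depth ranged from 22805964 to 34032962 counts per library. HBE1, the embryonic globin gene under HS2 and the check of the labels, averaged 61.6 ± 6.2 CPM in KRAB_CR4 and 85.0 ± 11.0 CPM in KRAB_CR10, against 359 ± 38.2 CPM in dCas9_CR4, 381 ± 46.8 CPM in dCas9_CR10 and 457 ± 17.8 CPM in KRAB_no_gRNA (SD, n = 3 each). All 9 K562 and erythroid markers listed were among the genes tested. Of these, HBE1 and HBG1 fell in KRAB_CR4 and KRAB_CR10 relative to KRAB_no_gRNA. HBE1, HBG1 and the transcription factor GATA1 fell in the lentiviral groups relative to no_lentivirus, where 11.2% of all tested genes fell. That mean of lentiviral groups includes KRAB_CR4 and KRAB_CR10. In KRAB_no_gRNA alone, edgeR called only GATA1 of these markers relative to no_lentivirus, at a log2 fold change of -0.46 ± 0.11 (SE). Lentiviral libraries numbered 3, and library 2 of no_lentivirus, were known to stand apart from the others of their groups, and counts of calls without them are given below.

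With KRAB, APOBEC3B was higher than with dCas9 alone for both gRNAs, which describes how the family was chosen and is not tested. The fitted log2 fold change was 0.46 ± 0.21 (SE) for CR4 and 0.41 ± 0.21 for CR10, and 0.43 ± 0.15 over both, or 1.35-fold. Leaving out 1 library at a time moved the value over both gRNAs between 0.34 and 0.52. Joined by library number, KRAB was above dCas9 in 6 of 6 pairs, by 1.10-fold to 1.57-fold, while the 6 KRAB libraries at 46.5 to 84.1 CPM overlapped the 6 dCas9 libraries at 31.3 to 56.0 CPM. APOBEC3A, APOBEC3C and APOBEC3D were also above dCas9 in 6 of 6 pairs, where 1.26% of all tested genes were. The ratios were 1.01 to 1.19 for APOBEC3A, 1.05 to 1.48 for APOBEC3C and 1.09 to 1.28 for APOBEC3D. APOBEC3F was higher with KRAB in 3 of 6 pairs and APOBEC3G in 2 of 6.

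**Figure D3:**
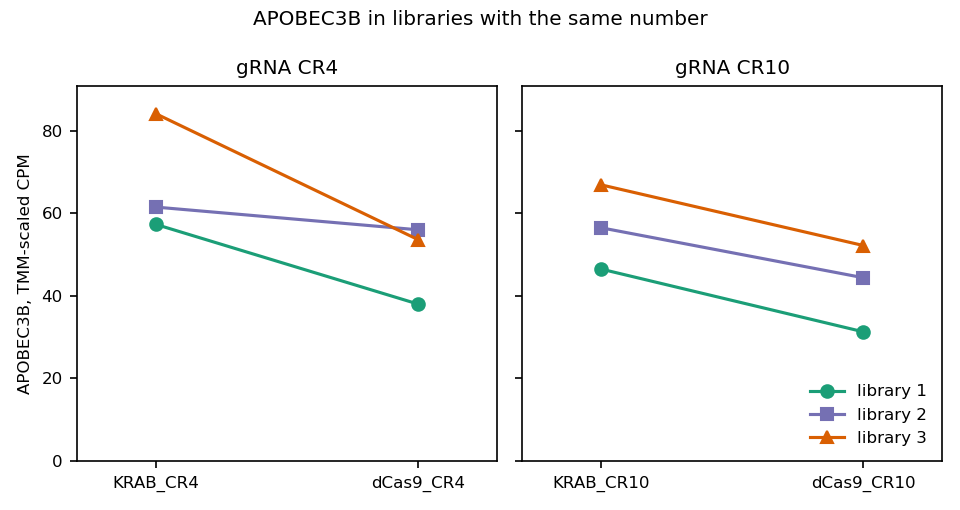
APOBEC3B in TMM-scaled CPM (vertical axis, linear from 0) with KRAB on the left and dCas9 on the right of each panel, 1 panel per gRNA, with lines joining libraries of the same number. All 6 lines fall towards dCas9, the steepest being library 3 of CR4 with 84.1 CPM for KRAB and 53.6 CPM for dCas9.

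Over both gRNAs the fitted log2 fold changes of the other members, KRAB over dCas9, were 0.22 ± 0.15 for APOBEC3C, 0.20 ± 0.16 for APOBEC3D, 0.12 ± 0.17 for APOBEC3A, 0.12 ± 0.16 for APOBEC3F and -0.07 ± 0.19 for APOBEC3G (SE). The median of the 6 members was 0.16, beside -0.01 for all tested genes. Because identical stretches join APOBEC3B to APOBEC3A and APOBEC3D, the share of this difference that belongs to APOBEC3B alone was not tested.

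No APOBEC3 member was called in any of the 4 groups with a gRNA relative to KRAB_no_gRNA. The dCas9 groups differ from KRAB_no_gRNA both in having a gRNA and in lacking KRAB, and these cannot be told apart in that comparison. With the edgeR quasi-likelihood test, 0 of 6 members passed in KRAB_CR4, KRAB_CR10, dCas9_CR4 and dCas9_CR10, where 0.0204%, 0.0204%, 0% and 0% of all genes did, and DESeq2 also called 0 members in each. These 4 comparisons share the KRAB_no_gRNA libraries. At an unadjusted p under 0.05, 1 member passed in KRAB_CR10, where 1.49% of all genes did, and 0 passed in KRAB_CR4, dCas9_CR4 and dCas9_CR10, where 1.71%, 0.449% and 1.19% of all genes did. That member was APOBEC3D, at 14.1 ± 2.35 CPM in KRAB_CR10 and 9.66 ± 1.97 CPM in KRAB_no_gRNA (SD, n = 3 each), with a log2 fold change of 0.55 ± 0.23 (SE, 95% interval 0.07 to 1.02, edgeR adjusted p = 0.999). The fits in this paragraph did not use library number. With it as a block on the lentiviral libraries, APOBEC3D had 0.58 in KRAB_CR10 (edgeR unadjusted p = 0.000114, adjusted p = 0.119). In KRAB_CR4 it then had 0.46 (edgeR unadjusted p = 0.00125, adjusted p = 0.304).

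Without a block on library number, the intervals around these differences were wide. That for APOBEC3B in KRAB_CR4 reached from -0.10 to 0.78. With such a block on the lentiviral libraries, APOBEC3B had an edgeR unadjusted p of 0.00381 in KRAB_CR4 and 0.00443 in dCas9_CR10. Its edgeR adjusted p was 0.369 and 0.43. The KRAB and dCas9 values of APOBEC3B were those by which the family was chosen, so these p-values may be too small. For APOBEC3B the log2 fold change relative to KRAB_no_gRNA was 0.34 ± 0.21 in KRAB_CR4, 0.09 ± 0.21 in KRAB_CR10, -0.12 ± 0.21 in dCas9_CR4 and -0.32 ± 0.21 in dCas9_CR10 (SE). The KRAB_CR4 value was 0.17 without library 3 of KRAB_CR4, and the dCas9_CR10 value was -0.12 without library 1 of dCas9_CR10. For APOBEC3C it was 0.36 ± 0.21 in KRAB_CR4, 0.32 ± 0.21 in KRAB_CR10, 0.07 ± 0.21 in dCas9_CR4 and 0.18 ± 0.21 in dCas9_CR10. APOBEC3G lay between -0.15 in KRAB_CR4 and 0.02 in dCas9_CR4, with standard errors of 0.26 to 0.27. The median of the 6 members was 0.27 in KRAB_CR4, 0.23 in KRAB_CR10, 0.01 in dCas9_CR4 and 0.12 in dCas9_CR10, beside medians of all tested genes between -0.02 and 0. Apart from the globin genes HBE1 and HBG1, 0 genes of the APOBEC3 pathway and marker lists were called by edgeR in these 4 comparisons.

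KRAB_CR4 and KRAB_CR10 were also compared with each other. No member passed, with 0 of 6 called by edgeR and by DESeq2, and 0% of all genes called. At an unadjusted p under 0.05, 0 members and 0.897% of all genes passed. The log2 fold change, CR4 over CR10, was -0.36 ± 0.24 for APOBEC3A, with 4.12 CPM in KRAB_CR4 and 5.28 CPM in KRAB_CR10, and 0.26 ± 0.21 for APOBEC3B, with 67.6 CPM in KRAB_CR4 and 56.6 CPM in KRAB_CR10. The other 4 members lay between -0.09 and 0.04.

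APOBEC3G fell in the lentiviral cells relative to untransduced cells. Its lentiviral libraries had a lowest value of 5.68, a median of 7.54 and a highest value of 10.1 CPM, against 10.6, 19.9 and 11.1 CPM in no_lentivirus. The log2 fold change of the mean of the 5 lentiviral groups over no_lentivirus was -0.89 ± 0.19 (SE, 95% interval -1.29 to -0.49), or 0.54-fold, with an edgeR adjusted p of 0.00545. It was the 1 member of 6 called, in a comparison in which 18.7% of all tested genes were called, 11.2% of them lower and 7.55% higher as shares of all tested genes. DESeq2 also called 1 member and 23.5% of all genes, and at an unadjusted p under 0.05 edgeR had 2 members and 33.6% of all genes. The absence of overlap between the lentiviral and no_lentivirus values was shared by 4.24% of tested genes in the same direction. The call rested on library 2 of no_lentivirus: without it the log2 fold change was -0.54 with an edgeR adjusted p of 0.152, and the number of genes called in all was 346, against 2755 with it. Without the lentiviral libraries numbered 3 the log2 fold change was -1.05 with an edgeR adjusted p of 0.00104.

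The other 5 members did not pass in that comparison. APOBEC3A had a log2 fold change of 0.48 ± 0.19 (SE, 95% interval 0.07 to 0.89, edgeR adjusted p = 0.0941). With library number as a block over all 18 libraries its value was also 0.48, with an edgeR adjusted p of 0.0164, in a fit that called 28.5% of all genes. That block also joins untransduced to lentiviral libraries. Of 15 such same-number pairs, only 5 correlated above 0.1, so this p-value may be too small. It was 0.29 (edgeR adjusted p = 0.344) without library 1 of no_lentivirus and 0.37 (0.201) without the lentiviral libraries numbered 3. APOBEC3B had -0.14 ± 0.16, APOBEC3C -0.04 ± 0.16, APOBEC3D 0.08 ± 0.17 and APOBEC3F 0.09 ± 0.17 (SE). The median of the 6 members was 0.02, beside 0.01 for all tested genes.

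KRAB_no_gRNA is 1 of the 5 groups of the comparison above. Taken alone relative to no_lentivirus, it gave values of like size for APOBEC3G, APOBEC3A and APOBEC3B. APOBEC3C, APOBEC3D and APOBEC3F lay lower than in that comparison, at -0.22 ± 0.21, -0.24 ± 0.23 and -0.05 ± 0.22 (log2 fold change, SE). Over the 6 members the median was -0.18, beside 0.01 for all tested genes. For APOBEC3G the log2 fold change was -0.83 ± 0.26 (SE, 95% interval -1.38 to -0.27, edgeR adjusted p = 0.0643), with 7.81 ± 0.299 CPM in KRAB_no_gRNA and 13.9 ± 5.25 CPM in no_lentivirus (SD, n = 3 each). For APOBEC3A it was 0.52 ± 0.24 (edgeR adjusted p = 0.187). Thus 0 of 6 members were called by edgeR, where 6.63% of all genes were, 2 passed an unadjusted p under 0.05, where 26.3% of all genes did, and DESeq2, which called 13.6% of all genes, called 1, APOBEC3G, with an adjusted p of 0.0242. APOBEC3G also passed with library number as a block over all 18 libraries (-0.82, edgeR adjusted p = 0.0249), where 17.8% of all genes did. The limit given above for that block holds here too. APOBEC3G passed as well without library 1 of no_lentivirus (-1.01, 0.0243), whereas without library 2 of no_lentivirus it had -0.48 and 0.375.

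**Figure D4:**
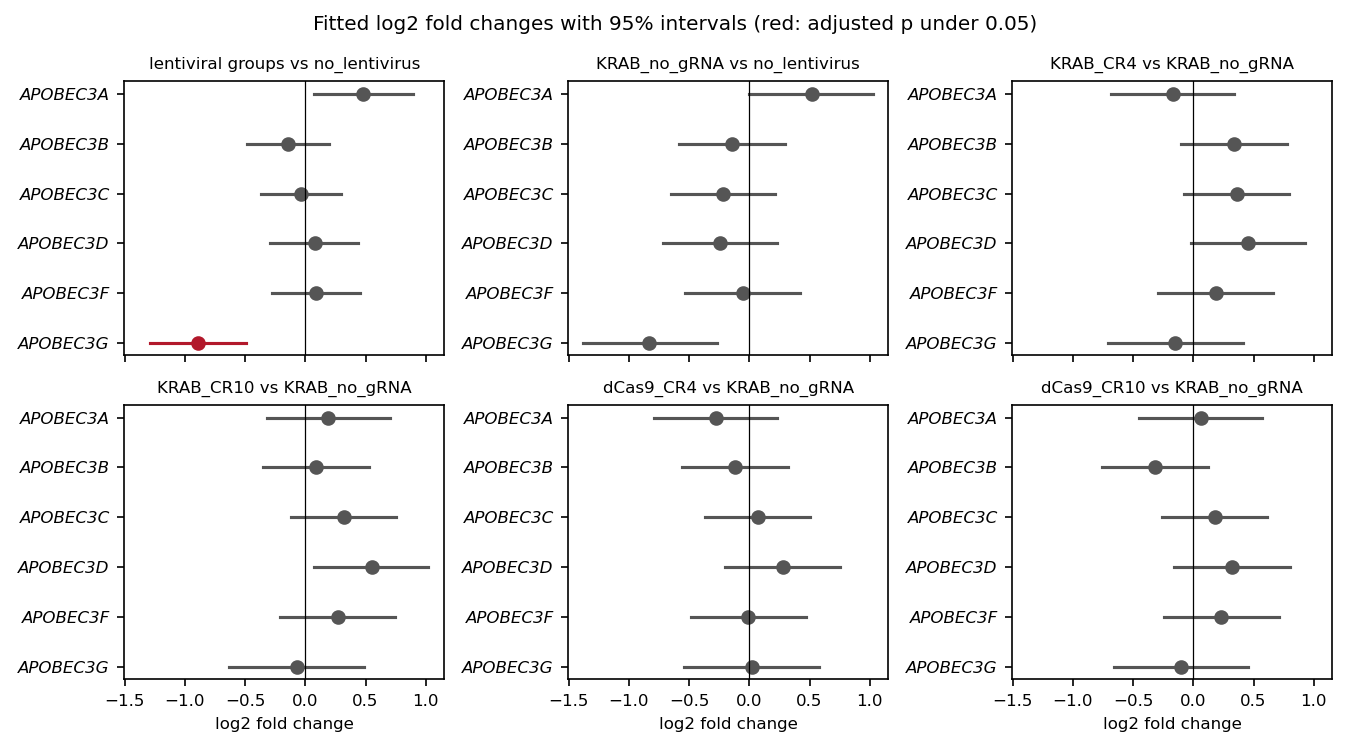
Fitted log2 fold changes (horizontal axes) of 6 APOBEC3 members with 95% intervals in 6 comparisons, each named as numerator vs denominator, with red for an edgeR adjusted p under 0.05. The 1 red value is APOBEC3G at -0.89 in the lentiviral groups vs no_lentivirus.

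Genes of the interferon response, which in many cells includes APOBEC3 members, moved in the same comparison. Of 28 genes listed, 19 were tested, and 9 fell and 0 rose in the lentiviral groups relative to no_lentivirus, where 11.2% of all tested genes fell. The median log2 fold change of the list was -0.65, beside 0.01 for all tested genes. OAS3, an activator of RNase L, had 2.96 to 5.63 CPM in the lentiviral libraries and 9.83, 19.5 and 13.3 CPM in no_lentivirus, a log2 fold change of -1.65 ± 0.18 (SE). IFIH1, the double-stranded RNA sensor MDA5, had -1.67 ± 0.24, USP18, a brake on interferon signalling, -1.50 ± 0.27, and the transcription factor IRF1 -0.65 ± 0.14. In each of these 4 genes library 2 of no_lentivirus was the highest of the 18 libraries, as it was for APOBEC3G. Without that library 2 of 19 genes fell, where 346 genes were called in all. Without the lentiviral libraries numbered 3, 11 of 19 fell, where 4439 genes were called in all. Both of these alternatives were added after the data had been seen. In KRAB_no_gRNA alone 4 of the 19 interferon response genes fell relative to no_lentivirus, where 6.63% of all tested genes were called. Without library 2 of no_lentivirus 1 of 19 did, where 41 genes were called in all. The summed level of the listed genes was 165 to 196 CPM in the lentiviral libraries and 219 to 276 CPM in no_lentivirus. The part of the interferon response in the APOBEC3G value was not tested.

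Summed levels of the lymphoid and megakaryocyte markers listed were also lower in the lentiviral libraries, while the myeloid sums overlapped. In each of these lists 1 gene made up nearly all of the sum. The summed level of 14 lymphoid markers was 70.7 to 120 CPM in the lentiviral libraries and 138 to 353 CPM in no_lentivirus, with the highest sum in library 2. Nearly all of it was PTPRC, the leukocyte surface phosphatase CD45, with 64.6 to 108 CPM in the lentiviral libraries and 125, 344 and 200 CPM in no_lentivirus. The other 13 lymphoid markers together had 5.18 to 11.7 CPM in the lentiviral libraries and 8.99 to 13.3 CPM in no_lentivirus. MS4A1 was at 0 in all libraries, and the T cell marker CD2 reached at most 0.16 CPM in the lentiviral libraries and 0.198 CPM in no_lentivirus. Of the 6 lymphoid markers tested, PTPRC fell and CD8A rose, where 11.2% of all tested genes fell and 7.55% rose. CD8A had at most 1.89 CPM in the lentiviral libraries and 0 counts in every no_lentivirus library. Without the lentiviral libraries numbered 3, 2 of the 6 fell and 1 rose, and 4439 genes were called in all.

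The 8 myeloid markers summed to 11.6 to 29.5 CPM in the lentiviral libraries and 27.0 to 39.3 CPM in no_lentivirus, and S100A9 was at 0. Nearly all of it was LYZ, with 10.9 to 28.3 CPM in the lentiviral libraries and 26.6 to 36.9 CPM in no_lentivirus. Of 3 tested, 1 fell, LYZ, which encodes lysozyme, where 11.2% of all tested genes fell. None did without library 2 of no_lentivirus, where 346 genes were called in all. Without the lentiviral libraries numbered 3, 2 of 3 fell, where 4439 genes were called in all. The 4 megakaryocyte markers summed to 2.58 to 12.1 CPM in the lentiviral libraries and 12.3 to 25.0 CPM in no_lentivirus, and GP9 was at 0. The 1 tested, ITGA2B, the integrin subunit CD41, fell, and it did not pass without library 2 of no_lentivirus. It made up nearly all of the sum, with 2.58 to 12.1 CPM in the lentiviral libraries and 12.1 to 24.7 CPM in no_lentivirus. Because 1 gene carried each sum, the sums do not give the level of a cell type. In bulk samples, fewer cells with such a transcript and less of it per cell cannot be told apart. The part of these markers in the APOBEC3G value was not tested.

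The other lists of the APOBEC3 pathway were counted in the same comparison of the lentiviral groups with no_lentivirus, in which 18.7% of all tested genes were called. Of 18 tested retroviral and retroelement restriction genes, 0 rose and 2 fell: SERINC3, which reduces the infectivity of virions, at -0.48 ± 0.13, and MOV10, an RNA helicase, at -0.27 ± 0.08 (log2 fold change, SE). Of 16 tested genes of uracil excision and abasic site repair, which act on the uracil that APOBEC3 enzymes leave, 1 rose, REV1, a polymerase that inserts cytosine opposite abasic sites, at 0.31 ± 0.11. UNG, the main uracil-DNA glycosylase, had a median of 92.9 CPM in the lentiviral libraries and 77.7 CPM in no_lentivirus. Without library 2 of no_lentivirus, 0 genes of either list were called. Without the lentiviral libraries numbered 3, where 4439 genes were called in all against 2755 with them, 1 of 19 tested restriction genes rose and 6 fell, and 3 repair genes rose and 1 fell.

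Among 8 tested genes for APOBEC3 binding partners and cofactors of Vif, 2 rose and 1 fell, where 18.7% of all tested genes were called. CBFB, which HIV-1 Vif recruits, had 135 to 170 CPM in the lentiviral libraries and 113, 102 and 106 CPM in no_lentivirus, at 0.55 ± 0.09 (log2 fold change, SE), and CUL5, the scaffold of the ligase that Vif uses, had 0.28 ± 0.09. TRIB3 had -1.10 ± 0.31. Without library 2 of no_lentivirus 1 of the 8 rose and 0 fell, and without the lentiviral libraries numbered 3 the counts were again 2 and 1.

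The NF-kB and DREAM pathways, known to control APOBEC3B, were listed as well, in the same comparison. There, 18.7% of all tested genes were called, 11.2% lower and 7.55% higher. Of 15 tested NF-kB pathway genes, 2 rose, the inhibitor NFKBIB at 0.67 ± 0.14 and the kinase MAP3K14 at 0.79 ± 0.20 (log2 fold change, SE). Of 25 tested genes of the DREAM complex and E2F-controlled cell cycle, 1 rose, the proliferation marker MKI67 at 0.69 ± 0.21, and 2 fell, AURKA at -0.26 ± 0.07 and CCNB2 at -0.23 ± 0.08. Of 15 tested neighbours of the cluster on chromosome 22, 2 rose, TOMM22 at 0.89 ± 0.22 and NPTXR at 0.40 ± 0.12, and 2 fell, PDGFB at -0.94 ± 0.28 and RPL3 at -0.33 ± 0.10. Without library 2 of no_lentivirus 0 genes of the NF-kB and DREAM lists were called, and 1 neighbour fell. That fit called 346 genes in all. Without the lentiviral libraries numbered 3, 4439 genes were called in all. In that fit 2 NF-kB genes rose and 3 fell, 3 DREAM and cell cycle genes rose and 3 fell, and 4 neighbours rose and 5 fell.

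Within the lentiviral groups, the libraries numbered 3 carried more APOBEC3 transcript than those numbered 1 and 2. On the log2(CPM + 1) scale the mean difference over 5 groups was 0.45 for APOBEC3D, 0.41 for APOBEC3F, 0.39 for APOBEC3C, 0.36 for APOBEC3B, 0.33 for APOBEC3G and 0.22 for APOBEC3A, against a median of 0.01 for all tested genes. APOBEC3A, APOBEC3B, APOBEC3C, APOBEC3D and APOBEC3F were above in 5 of 5 groups and APOBEC3G in 4 of 5. Of all tested genes 27.0% were above in 5 of 5 groups. A larger difference was found in 10.3% of tested genes for APOBEC3D and in 26.4% for APOBEC3A, with the other members between these. In APOBEC3C, the libraries numbered 3 had 121 to 133 CPM, and those numbered 1 and 2 had 78.3 to 127 CPM. What the number stands for is not given in the labels, and the cause of the difference was not tested.

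**Figure D5:**
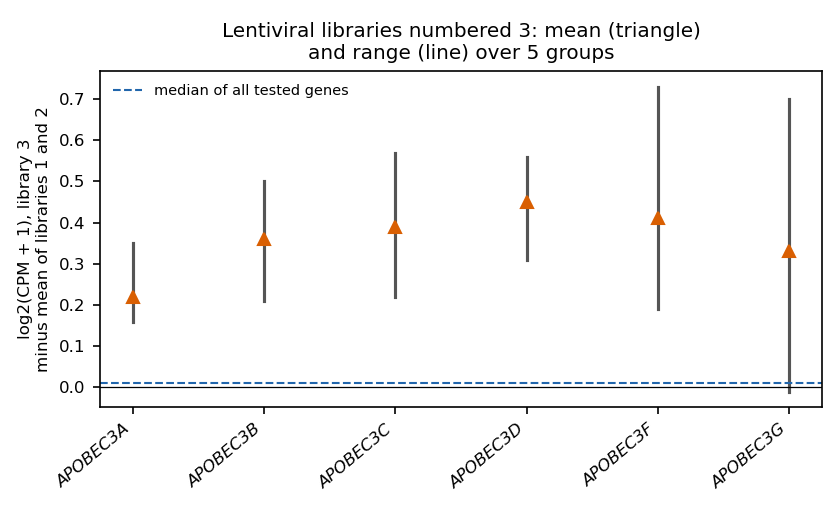
Difference on the log2(CPM + 1) scale (vertical axis) between library 3 and the mean of libraries 1 and 2 in the 5 lentiviral groups, with the mean as a triangle and the range over groups as a line for 6 APOBEC3 members. All triangles, 0.22 to 0.45, lie above the dashed median of all tested genes at 0.01.

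Profiles over the 18 libraries were compared by the root mean square (RMS) difference of log2(CPM + 1) after each gene was centred on its own mean, which is a description over libraries that share groups and depth. Among the members, APOBEC3C and APOBEC3F were closest at 0.109, followed by APOBEC3D with APOBEC3F at 0.147 and APOBEC3C with APOBEC3D at 0.155. APOBEC3G was between 0.356 from APOBEC3B and 0.495 from APOBEC3A, and APOBEC3A and APOBEC3B were 0.353 apart. APOBEC3D and APOBEC3F share the identical 105-base motif printed above, and the part of shared reads in their likeness was not tested.

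APOBEC3C had the highest mean CPM, and the genes most like it among 12604 candidates were DCLRE1C, which encodes the nuclease Artemis, at 0.089, LRRFIP1 at 0.094, the noncoding RNA INE2 at 0.123, and ZNF330 and RSBN1L at 0.129 each. The profile of APOBEC3C itself had an RMS of 0.259 around its mean. DCLRE1C had 20.1 to 33.1 CPM in the lentiviral libraries and 28.3, 24.0 and 28.5 CPM in no_lentivirus. For APOBEC3G, chosen for this after its values had been seen, the nearest genes were HAUS4, a subunit of the spindle complex augmin, at 0.12, the ubiquinone synthesis enzyme COQ5 at 0.121, SDSL at 0.122, the lysosomal fucosidase FUCA1 at 0.126 and the telomere protein STN1 at 0.13. HAUS4 had a median of 35.6 CPM in the lentiviral libraries and 52.2, 95.1 and 57.7 CPM in no_lentivirus, so that library 2 of no_lentivirus was the highest there too.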

How the data were processed

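Poly(A) RNA of 18 K562 libraries was sequenced after Nextera tagging, which does not mark the strand. The authors deposited raw counts for 40709 RefSeq transcripts per library. Build hg19 and the tools DESeq, Picard, SAMtools, Bowtie2 and R 3.1.2 are listed in the submitters' processing notes. The annotation release and the treatment of reads with several alignments are not given in the sources used here. Every count was even (0 odd values), so a fragment was taken as 2 counts.

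Counts were summed to 24395 genes, with 99.02% of counts matched to RefSeq (GRCh38) or GENCODE names. filterByExpr kept 14713 genes. edgeR 4.0.16 (R 4.3.3) with TMM scaling fitted 6 group means, with Benjamini-Hochberg adjustment over all tested genes and calls at an adjusted p under 0.05. Dispersion corresponded to a coefficient of variation of 21.6%. DESeq2 1.42.0, RLE scaling, other filters, halved counts, the highest transcript per gene, library-number blocks and left-out libraries were alternatives. The code was tested on simulated data.

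Libraries with the same number share that number in the labels. In the lentiviral groups their deviations from group means correlated above 0.1 in 30 of 30 same-number pairs (r = 0.17 to 0.87, across 12604 genes). Of 60 lentiviral pairs with different numbers, 17 had r above 0.1 (r = -0.75 to 0.59). The numbers were taken to pair the lentiviral libraries, although correlation also occurred without a shared number. The main fit did not use this pairing, and fits with a block on library number were alternatives. Of 15 same-number pairs with an untransduced library, 5 had r above 0.1 (r = -0.49 to 0.40). A block over all 18 libraries therefore joins libraries that were not shown to be paired.

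The members and gene lists were chosen with earlier results of these data known. Named were the 7 members, the 5 genes most like the member with the highest mean CPM, at most 4 passing genes per list (smallest p first) and HBE1, with others marked in the text.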

Additional observations from a re-analysis of the deposited data

How the results depend on the processing

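The count of APOBEC3 members called was 0 under all alternatives run in the 4 comparisons with KRAB_no_gRNA as denominator and in KRAB_CR4 vs KRAB_CR10, including the replicate block on the lentiviral libraries. In KRAB_no_gRNA vs no_lentivirus it was 1 with DESeq2, 1 with the replicate block over all 18 libraries, and 0 to 1 when libraries were left out in turn. In the lentiviral groups vs no_lentivirus it was 2 with the replicate block over all 18 libraries, where APOBEC3A joined APOBEC3G and 28.5% of all genes were called, and 0 to 1 when libraries were left out in turn. The pairing changed no other tested call of a member. The APOBEC3G log2 fold change in that comparison ranged from -1.06 to -0.54 over the left-out libraries, with edgeR adjusted p from 0.00206 to 0.152, and library 2 of no_lentivirus was the 1 whose absence ended the call. Over the left-out libraries the APOBEC3A value in that comparison ranged from 0.29 to 0.62. The APOBEC3C value relative to KRAB_no_gRNA ranged from 0.25 to 0.58 in KRAB_CR4 and from 0.21 to 0.55 in KRAB_CR10, and the APOBEC3D value in KRAB_CR4 from 0.24 to 0.64. The APOBEC3B value of KRAB over dCas9 ranged from 0.28 to 0.57 for CR4 and from 0.22 to 0.59 for CR10 over the left-out libraries. None of the APOBEC3A, APOBEC3B, APOBEC3C, APOBEC3D and APOBEC3G values rerun turned its direction under the alternatives run. Adding the hybrid transcript to APOBEC3A, or counting both as APOBEC3B, changed no call of a member, and these alternatives were chosen after the data had been seen. Depth limits APOBEC3A, at 80 to 160 counts per library, and APOBEC3H, at 0 to 4.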
